A study of Mus musculus with 6 samples.

Results

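Type I interferon-stimulated genes are the genes that a cell switches on when interferon alpha or beta reaches it. The 37 genes described here were taken by name from a list of well-known members of this group, and all 37 had a row among the 15445 genes of the count table. The cells were transgenic CD4+ T cells of a single antigen specificity, from the spleens of C57BL/6 mice infected 5 days earlier with lymphocytic choriomeningitis virus (LCMV). They were sorted on CD4, on Thy1.1, and on CD25, which makes the receptor for interleukin-2 high in affinity. The comparison is of 3 libraries of CD25-high cells with 3 libraries of CD25-low cells, and all 6 share the strain, tissue, infection and day. The labels do not say whether the libraries came from separate mice, and p-values therefore describe spread among libraries, which may be technical. They do not name the transgene, the promoter that drives it, or whether mice were pooled.

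Interferon alpha and beta bind a shared receptor, IFNAR1 with IFNAR2, whose kinases JAK1 and TYK2 phosphorylate STAT proteins, STAT2 among them. With IRF9 these form the complex ISGF3, which binds a DNA motif called the interferon-stimulated response element (ISRE) beside its target genes. The products sense viral RNA, degrade it, block its translation, or limit the signal itself, and in CD4+ T cells type I interferon during viral infection also bears on differentiation.

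Total counts per library ran from 16787233 to 23567066, and mitochondrially encoded genes took between 32.0% and 38.3% of them. Il2ra, the gene for CD25, had CPM values (counts scaled to library size) of 1536, 432 and 666 in CD25-high libraries 1, 2 and 3 and of 20.7, 29.4 and 35.7 in CD25-low libraries 1, 2 and 3, so the sort was visible in every library. The summed CPM of 6 T cell markers was 2561 to 2663 in the CD25-high libraries and 2499 to 3387 in the CD25-low libraries. Cd3e was the largest part of that sum, and the markers differed. Cd3d was lower in CD25-high libraries 1 to 3 (37.4, 64.2 and 79.7 CPM against 110, 133 and 109 CPM), without overlap. Thy1 was higher in CD25-high cells in every same-numbered pair, with overlap, and the groups also overlapped for Cd3e, Cd4, Trac and Lck. The B cell markers with a row, Cd22 and Cd79b, summed to 10.4, 3.94 and 3.21 CPM in CD25-high libraries 1 to 3 and to 15.4, 8.81 and 8.44 CPM in CD25-low libraries 1 to 3. That sum was lower in CD25-high cells in every pair and highest in the libraries numbered 1, as were many of the 37 genes, while Cd79a, Ms4a1 and Pax5 had no row. Monocyte and macrophage markers, with no row for Adgre1, Cd14 and Fcgr1, summed to 5.72 to 10.4 CPM (CD25-high) and 7.03 to 10.2 CPM (CD25-low). Conventional dendritic cell markers, with no row for Flt3, Clec9a and Cd209a, summed to 6.54 to 18.2 and 6.73 to 16.0 CPM. The plasmacytoid dendritic cell list gave 436 to 453 CPM in the CD25-high and 158 to 266 CPM in the CD25-low libraries, of which Runx2, also a T cell gene, made up most, while Siglech and Klk1 had no row. Pecam1 had 24.2 to 40.9 CPM in the CD25-high and 50.3 to 73.8 CPM in the CD25-low libraries. It was the only stromal or endothelial marker with a row, as Col1a1, Col3a1 and Cdh5 had none. The part of these other cell types in the results was not tested.

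Promoter stretches that hold the ISRE letters are printed for a few of the genes, to show the element. They were picked, with values known, from promoters that hold it, and Oasl2, whose promoter entry holds none, is not among them. RefSeq promoters (GRCm38.p6, 250 bases before to 50 after each start) were matched for 27 of the 37 genes. Parp9, Parp14, Dhx58, Zbp1, Rtp4, Mx2, Oas2, Mx1, Usp18 and Ifi27l2a had no entry. The ISRE was searched on both strands as GAAA, 2 bases of any kind, and GAAA again, overlapping matches included, and capitals mark each match. Each stretch lies before the start of its gene and is written 5′ to 3′ on the strand of the gene. Ifit1 is at chr19:34640770-34640828 (+), Ifit3 at chr19:34583358-34583431 (+), Ifit1bl1 at chr19:34602048-34602087 (-), Rsad2 at chr12:26456548-26456587 (-), Oas1a at chr5:120907526-120907560 (-), Stat2 at chr10:128270261-128270300 (+) and Isg15 at chr4:156200860-156200911 (-).
Ifit1: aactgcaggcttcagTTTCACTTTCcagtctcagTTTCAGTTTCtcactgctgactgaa
Ifit3: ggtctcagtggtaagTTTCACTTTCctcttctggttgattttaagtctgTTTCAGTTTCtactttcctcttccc
Ifit1bl1: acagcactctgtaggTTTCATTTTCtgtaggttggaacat
Rsad2: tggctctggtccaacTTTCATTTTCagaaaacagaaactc
Oas1a: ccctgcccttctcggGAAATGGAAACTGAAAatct
Stat2: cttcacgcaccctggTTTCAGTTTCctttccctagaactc
Isg15: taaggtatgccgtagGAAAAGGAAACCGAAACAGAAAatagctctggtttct

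Of the 27 genes, 13 (48.1%) held the ISRE letters, against 3.98% of the 9055 tested genes with an entry. The motif-holding genes had a median log2 fold change of -1.21 between the sorts and the 14 without it -0.63, given as a description. A match shows that these letters are present and is neither a binding site nor a cause.

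Across the 37 genes, 36 had a lower estimate in CD25-high cells, and the exception was Ifi35 at a log2 fold change of 0.19. The median log2 fold change, CD25-high over CD25-low, was -0.85, beside 0.01 over all 12987 genes tested, and all 37 passed the filter on low counts. In edgeR's quasi-likelihood test with Benjamini-Hochberg adjustment over all genes tested, 3 of 37 were lower at an adjusted p below 0.05 (Stat2, Ifit1bl1 and Ifi27l2a), where 0.501% of all genes were called lower, and 0 were higher, where 0.154% were. At an unadjusted p below 0.05 there were 22, all lower, where 6.39% of all genes were. DESeq2 called 9 lower (Stat2, Irf7, Ddx58, Oas1a, Ifit1bl1, Ifit3, Mx1, Ifi27l2a and Sp100), where it called 1.87% of all genes lower. With the library number as a block, 22 of 37 were lower, where 2.9% of all genes were, and 0 were higher, where 1.73% were. In bulk libraries, fewer cells of a type and less RNA per cell cannot be told apart.

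The difference was seen within library numbers. The median log2 ratio of CD25-high to CD25-low (each CPM plus 0.5) was -0.998 for libraries numbered 1, -0.872 for those numbered 2 and -0.957 for those numbered 3. In 33 of 37 genes the CD25-high library was lower in all 3 same-numbered pairs, where 20.2% of all genes were. In 17 of 37 genes every CD25-high library was below every CD25-low library, where 9.54% of all genes were.

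**Figure D1:**
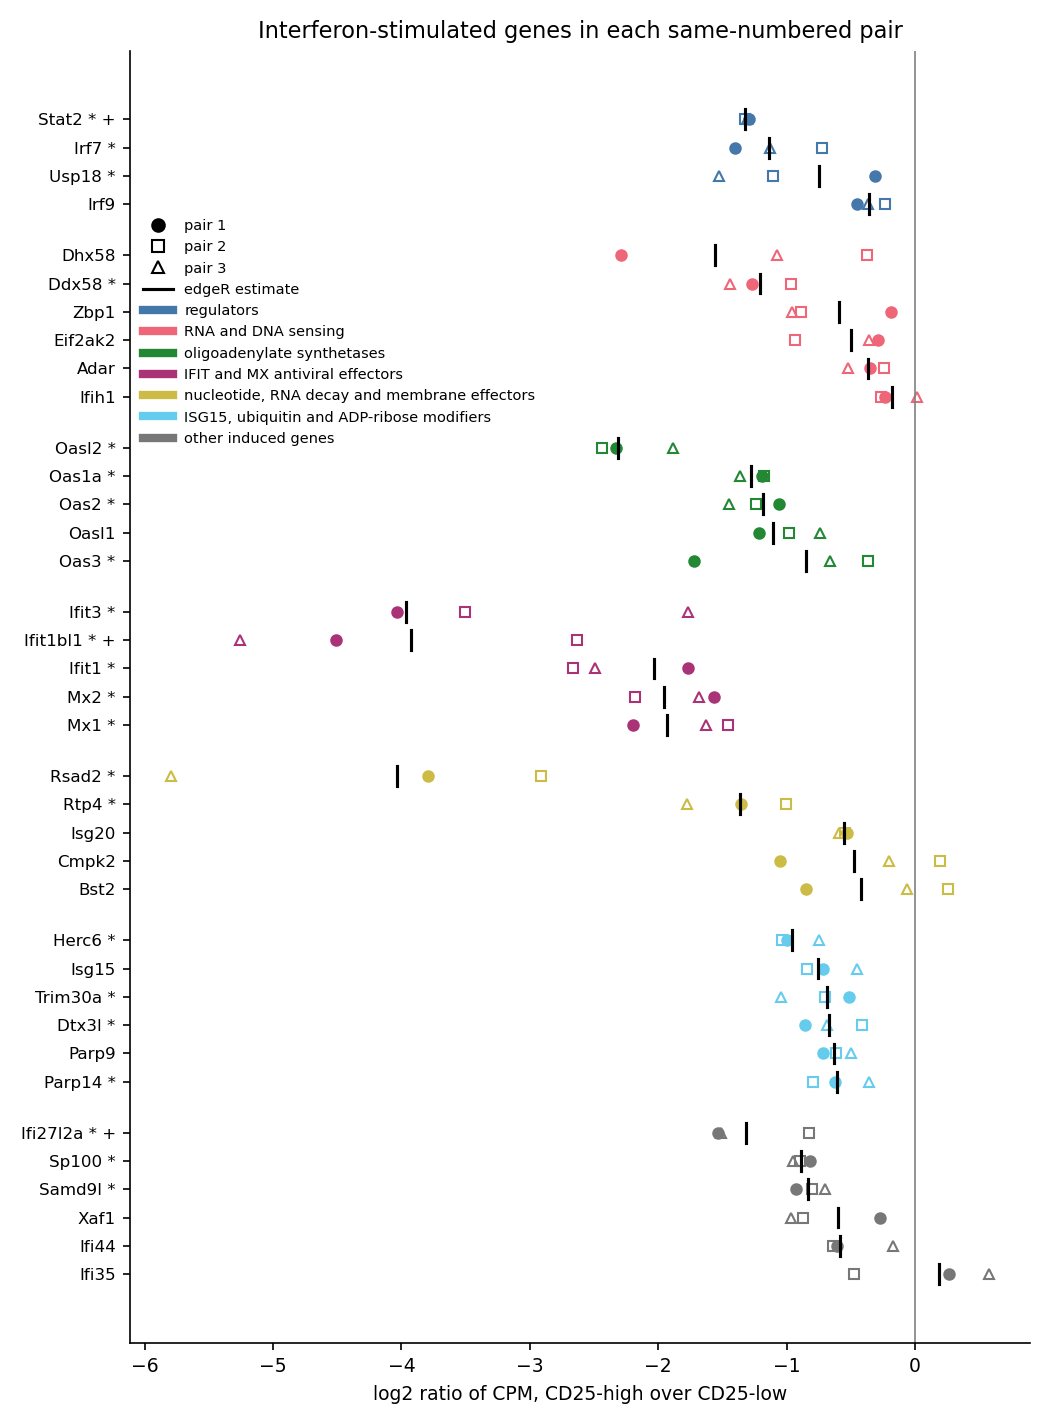
The log2 ratio of CD25-high to CD25-low CPM within each same-numbered pair of libraries, for the 37 genes grouped by function. Points left of 0 are lower in CD25-high cells; a star marks genes called with the library number as a block and a plus those called without it, and 33 genes lie left of 0 in all 3 pairs.

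The regulators of the pathway include its transcription factors. Stat2, the STAT particular to ISGF3 (chr10:128270559-128292849 on mm10), had 28.5, 24.3 and 21.7 CPM in CD25-high libraries 1 to 3 and 70.5, 61.7 and 54.3 CPM in CD25-low libraries 1 to 3. The groups did not overlap, and the 3 pair ratios, -1.29, -1.33 and -1.31, were close to each other. Stat2 was lower by a log2 fold change of -1.32 ± 0.23 (SE, adjusted p = 0.0273 by edgeR, 0.00136 with the block). That call held without CD25-high library 1, but was lost when any other library was left out, with adjusted p up to 0.216. Irf7, the factor that amplifies interferon production, had 9.58, 10.5 and 7.73 CPM against 26.1, 17.6 and 17.5 CPM, again without overlap. Its log2 fold change of -1.14 ± 0.30 passed with the block and with DESeq2 (adjusted p = 0.162 without the block and 0.0446 with it by edgeR, and 0.0243 by DESeq2), and failed in each block fit that left out a pair. Usp18, which removes ISG15 and restrains the receptor, had 64.8, 18.0 and 14.9 CPM against 80.7, 39.5 and 44.0 CPM, with CD25-high library 1 inside the CD25-low range. Usp18 passed with the block (adjusted p = 0.0346 by edgeR, 0.649 without it), and of the block fits that left out a pair it passed only without pair 1. Irf9, the DNA-binding partner of the STATs, had 46.9, 42.5 and 47.0 CPM against 64.3, 50.2 and 60.9 CPM, without overlap, and passed in neither fit, with a log2 fold change of -0.36 ± 0.20.

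Among the 6 sensors of viral RNA and DNA, 1 was called with the block. Ddx58 encodes RIG-I, which recognises RNA ends, and had 52.7, 52.7 and 29.3 CPM in the CD25-high and 127, 103 and 80.4 CPM in the CD25-low libraries. The groups did not overlap, and the log2 fold change was -1.21 ± 0.28 (adjusted p = 0.113 by edgeR, 0.00134 with the block). Ifih1 encodes MDA5, which recognises long double-stranded RNA, and had 495, 188 and 230 CPM against 583, 226 and 227 CPM. Its libraries numbered 1 were the highest of both groups, and its log2 fold change of -0.18 ± 0.43 passed in neither fit. Eif2ak2 encodes PKR, which halts translation on sensing RNA, and had 256, 130 and 127 CPM against 313, 250 and 163 CPM. The groups overlapped, and Eif2ak2 had a log2 fold change of -0.50 ± 0.32 that passed in neither fit. Dhx58, Zbp1 and Adar, which encode LGP2, a nucleic acid sensor of cell death and an RNA-editing enzyme, had log2 fold changes of -1.56, -0.59 and -0.36 and also passed in neither. Adar shares 1365 exonic bases with Chrnb2 on the other strand, and whether counting used strand is unknown here.

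Oligoadenylate synthetases make the messenger that activates RNase L. Of the 5 synthetase and synthetase-like genes, 4 were called lower with the block and 0 without it. Oasl2, a synthetase-like protein, had 58.2, 8.84 and 10.1 CPM in the CD25-high and 294, 50.1 and 38.5 CPM in the CD25-low libraries. CD25-high library 1 lay above CD25-low libraries 2 and 3, while each pair differed alike, by -2.33, -2.44 and -1.88. The log2 fold change of Oasl2 was -2.31 ± 0.87 without the block (adjusted p = 0.356 by edgeR) and -2.26 ± 0.19 with it (adjusted p = 2.44e-05). Oas1a had 15.8, 10.1 and 10.8 CPM against 36.8, 23.4 and 28.6 CPM, without overlap, and passed with the block (adjusted p = 0.00928 by edgeR, 0.115 without it). Of the 50-base words of Oas1a, 57.6% also occur in Oas1g or Oas1b, so its counts may be shared with these copies. Oas3 was the only one of the 37 whose CD25-high value was lowest in library 1, at 77.6, 166 and 143 CPM against 257, 214 and 227 CPM. Its groups did not overlap, and it passed with the block (adjusted p = 0.0344 by edgeR) but not when pair 1 was left out. Oas2 had 38.6, 10.7 and 8.57 CPM against 81.2, 25.9 and 24.3 CPM and passed with the block (adjusted p = 0.00435 by edgeR), while Oasl1 passed in neither fit.

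The IFIT and MX families include proteins that act directly on viral RNA and nucleocapsids, and this class had a median log2 fold change of -2.03. Counts of RNA do not show whether a working protein is made from a gene in these mice. All 5 were called with the block and 1 without it. Ifit1bl1, an IFIT family gene, had 2.61, 6.60 and 0.338 CPM in the CD25-high and 70.4, 43.6 and 31.6 CPM in the CD25-low libraries, with no overlap. The log2 fold change of Ifit1bl1 was -3.92 ± 0.74 (adjusted p = 0.0476 by edgeR, 0.000276 with the block). Without the block, that call was kept when CD25-high library 2 was left out and lost when any other library was, with adjusted p up to 0.166. Ifit3, of the same family, had 3.74, 0.745 and 1.13 CPM against 69.0, 13.7 and 5.05 CPM. Its groups did not overlap, and its log2 fold change of -3.96 ± 0.94 passed with the block (adjusted p = 0.000302 by edgeR, 0.118 without it). Ifit3b shares 51.2% of the 50-base words of Ifit3, so counts of the pair may be mixed. Ifit1, which binds viral RNA caps, had 33.3, 4.63 and 4.17 CPM against 115, 32.0 and 25.8 CPM, with CD25-high library 1 above CD25-low libraries 2 and 3. Ifit1 passed with the block (adjusted p = 0.00012 by edgeR, 0.384 without it), and without the block when CD25-high library 1 was left out (0.0326). Mx1, a gene of the dynamin-like GTPase family, had 30.3, 16.3 and 12.4 CPM against 141, 45.6 and 39.3 CPM without overlap. Mx1 passed with the block (adjusted p = 0.000302 by edgeR, 0.151 without it). Mx2, annotated as a polymorphic pseudogene, had 4.48, 1.22 and 0.790 CPM against 14.3, 7.32 and 3.64 CPM, and its call with the block (adjusted p = 0.0138 by edgeR) was lost without pair 1 or pair 2.

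**Figure D2:**
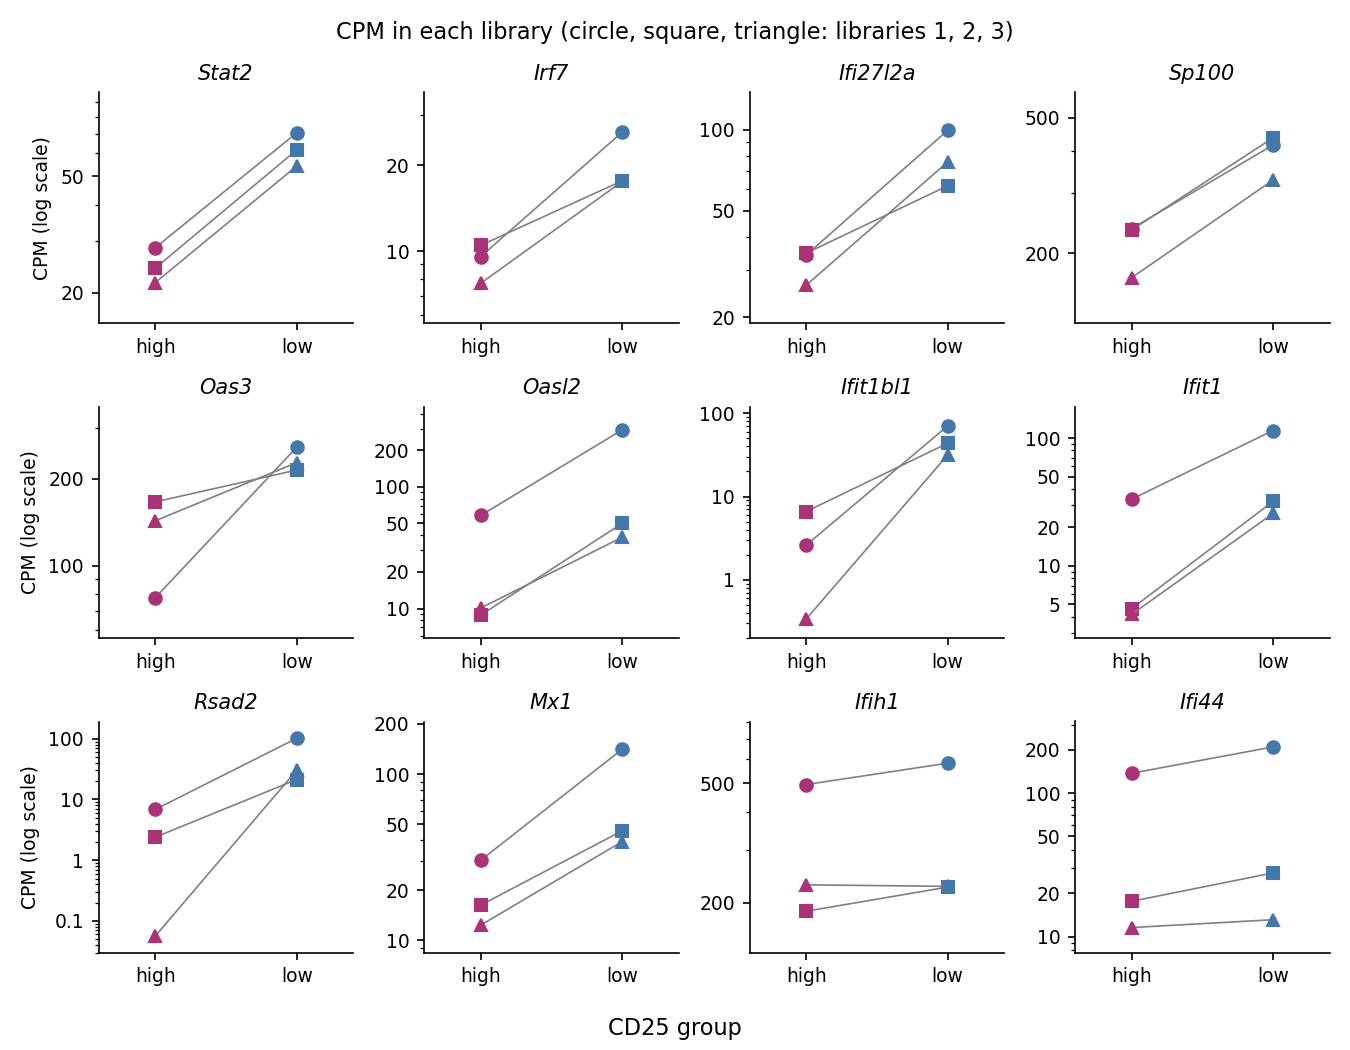
CPM by library, on a log axis, for 12 of the genes; each symbol is 1 library (circle, square and triangle for numbers 1, 2 and 3), coloured by sort, and lines join same-numbered libraries. Stat2 and Sp100 separate by sort with little spread, while Oasl2, Ifit1 and Ifi44 have their highest value in the libraries numbered 1 of both sorts.

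Among effectors that act on nucleotides, RNA decay and membranes, 2 of 5 were called with the block. Rsad2 encodes viperin, which makes a chain-terminating nucleotide, and had 6.86, 2.40 and 0.0564 CPM in the CD25-high and 102, 21.3 and 30.4 CPM in the CD25-low libraries. The Rsad2 value of CD25-high library 3 rests on 1 count, and the groups did not overlap. For Rsad2 the log2 fold change was -4.04 ± 0.98 (adjusted p = 0.127 by edgeR, 0.000514 with the block), and passed without the block when CD25-high library 1 was left out (0.0491). Cmpk2, a nucleotide kinase, lies 12751 bases from Rsad2 on chromosome 12, in the opposite orientation. It had 35.1, 36.4 and 23.4 CPM against 73.6, 31.7 and 27.0 CPM, so that only CD25-low library 1 stood above the rest, and its log2 fold change of -0.48 ± 0.37 passed in neither fit. Rtp4, a regulator of interferon signalling, had 43.8, 23.6 and 13.0 CPM against 113, 47.8 and 45.7 CPM, without overlap, and passed with the block (adjusted p = 0.00176 by edgeR, 0.309 without it). Isg20, an RNA exonuclease, and Bst2, the tether of budding virions, had log2 fold changes of -0.56 and -0.42 and passed in neither fit.

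The modifiers that attach or read ISG15, ubiquitin or ADP-ribose had a median log2 fold change of -0.68, and 4 of 6 were called with the block and 0 without it. Herc6, the mouse ISG15 ligase, had 86.9, 61.0 and 48.5 CPM in the CD25-high and 174, 126 and 81.8 CPM in the CD25-low libraries, with CD25-high library 1 above CD25-low library 3. Herc6 passed with the block (adjusted p = 0.00498 by edgeR, 0.267 without it) and shares 1269 exonic bases with the transcript Gm45193. Dtx3l, a ubiquitin ligase, had 108, 108 and 97.5 CPM against 196, 144 and 158 CPM, without overlap. Its call with the block (adjusted p = 0.0344 by edgeR) was lost without pair 1 or pair 3, and it shares 458 exonic bases with its partner Parp9 on the other strand. Parp14, an ADP-ribosyltransferase, had 215, 185 and 179 CPM against 332, 320 and 231 CPM, without overlap, and its call with the block (adjusted p = 0.0421 by edgeR) was lost without pair 1 or pair 2. Trim30a, a TRIM family protein, had 293, 152 and 109 CPM against 420, 248 and 226 CPM, with CD25-high library 1 inside the CD25-low range. It passed with the block (adjusted p = 0.0145 by edgeR) but not when pair 3 was left out. Isg15, the ubiquitin-like modifier itself and the holder of the longest element printed above, had 7.65, 2.40 and 2.37 CPM against 12.9, 4.68 and 3.43 CPM. The libraries numbered 1 of both sorts were its highest, and its log2 fold change of -0.76 ± 0.64 passed in neither fit. Parp9 had a log2 fold change of -0.63, without overlap, and passed in neither fit (adjusted p = 0.0611 by edgeR with the block, 0.344 without it).

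Of the 6 other induced genes, 3 were called with the block and 1 without it. Ifi27l2a, a small interferon-inducible membrane protein (chr12:103442167-103443680 on mm10), had 34.1, 34.7 and 26.3 CPM in the CD25-high and 99.7, 61.9 and 75.9 CPM in the CD25-low libraries. The groups did not overlap, and the log2 fold change of Ifi27l2a was -1.32 ± 0.24 (adjusted p = 0.0435 by edgeR, 0.00232 with the block). That call without the block was lost when any 1 of the 6 libraries was left out, with adjusted p up to 0.284. Sp100, a component of nuclear bodies, had 236, 234 and 169 CPM against 416, 437 and 328 CPM, without overlap, and passed with the block (adjusted p = 0.00268 by edgeR, 0.118 without it). Samd9l, an antiviral and growth-restraining protein, had 215, 160 and 119 CPM against 409, 279 and 195 CPM, with overlap at CD25-high library 1. It passed with the block at a log2 fold change of -0.81 ± 0.15 (adjusted p = 0.00591 by edgeR, 0.329 without it). Ifi44 had 138, 17.6 and 11.6 CPM against 210, 27.8 and 13.1 CPM, so library number separated its values more than the sort did, and it passed in neither fit. Ifi35 had 18.8, 10.9 and 23.5 CPM against 15.6, 15.4 and 15.6 CPM, with overlap. Xaf1 had a log2 fold change of -0.60, with overlap, and passed in neither fit (adjusted p = 0.0608 by edgeR with the block, 0.632 without it).

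Across the classes, 15 of the 22 genes called with the block were also called in each block fit that left out a pair, and 7 were not in at least 1 of them. Of all genes, 1.39% were called lower in all 4 of those fits. Those 7 were Irf7, Usp18, Oas3, Mx2, Trim30a, Dtx3l and Parp14. Without both libraries numbered 1, and with no block, 16 of 37 genes were called lower, where 2.04% of all genes were, itself above the 0.501% with all libraries.

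The library number moved with these genes as well as the sort. The libraries numbered 1 were the highest of their group in both sorts for 29 of 37 genes (78.4%), beside 19.2% of all genes tested. Library 1 was above the mean of libraries 2 and 3 by a median log2 difference of 0.87 in CD25-high and 0.89 in CD25-low cells, beside -0.03 and -0.05 over all genes. In 12 genes the excess was at least 2-fold in both sorts, as in 1.52% of all genes. These were Ifih1, Oas2, Oasl2, Ifit1, Ifit3, Mx1, Mx2, Rsad2, Isg20, Rtp4, Isg15 and Ifi44. The difference of library number 1 was larger than that of the sort in 16 of 37 genes and smaller in 21, and it was the larger in 55.7% of all genes. Thy1, a marker of the sort, was lower in the libraries numbered 1 (97.8 CPM, CD25-high, and 54.0 CPM, CD25-low) than in the others (206 to 274 CPM). Leaving out 1 of these libraries moved several estimates of the fit without the block by over 1.5 times. Without CD25-high library 1 the log2 fold change was -3.75 for Oasl2, -2.18 for Oas2, -3.70 for Ifit1, -3.05 for Mx2 and -1.73 for Usp18. Without CD25-low library 1 it was -0.79, -0.38, -1.04, -1.34 and -0.36 for the same genes in that order. The estimates of Ifit3, Mx1, Rtp4, Trim30a and Samd9l without CD25-low library 1 were -2.32, -1.11, -0.81, -0.36 and -0.53. What the number stands for is not given in the labels, and its part in the result was not tested beyond the fits with the block and without those libraries.

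**Figure D3:**
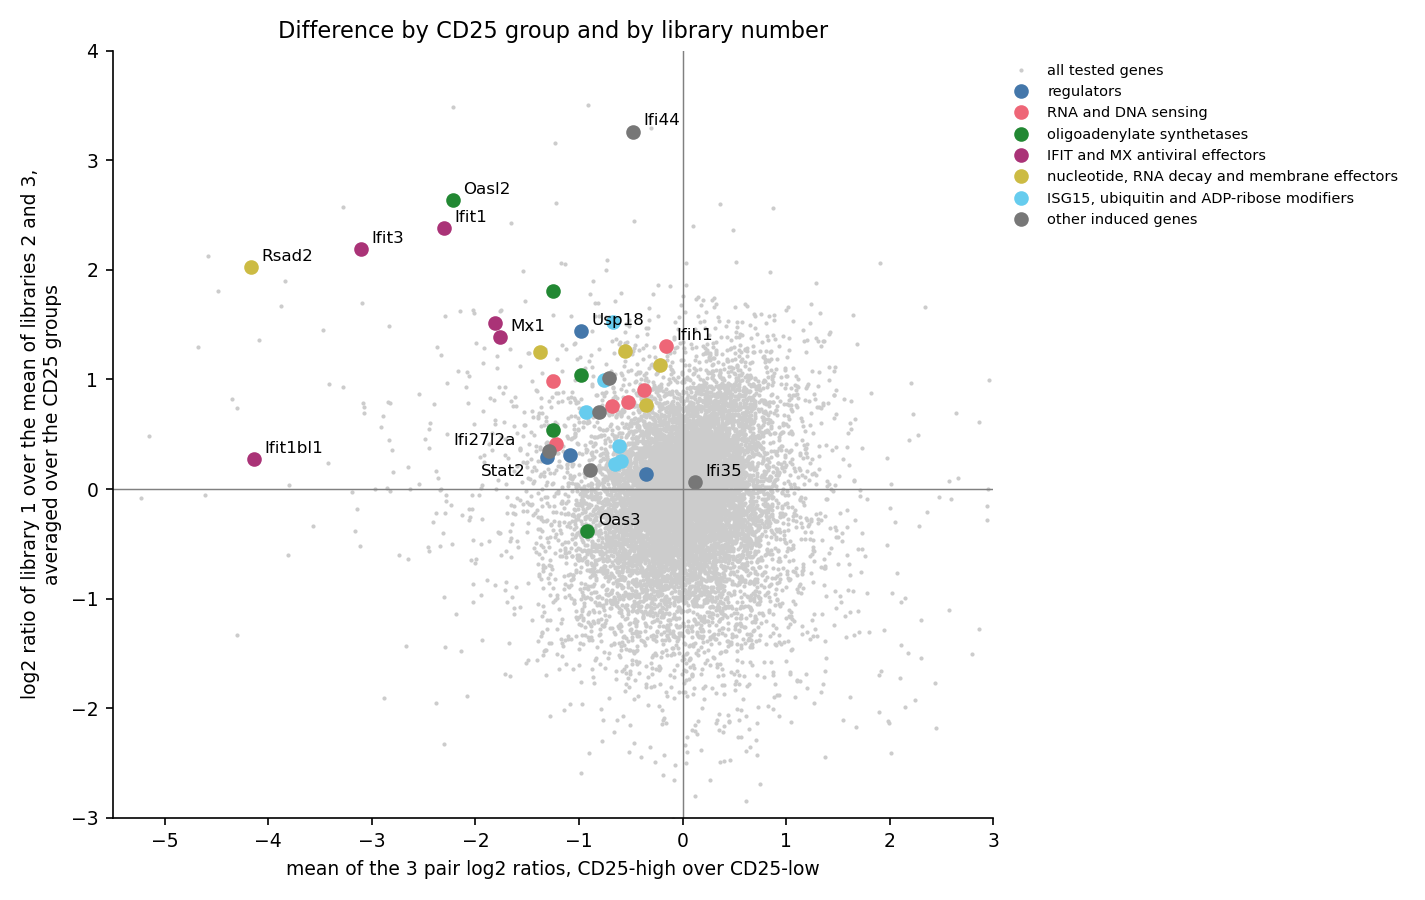
For each gene, the mean log2 ratio of CD25-high to CD25-low over the same-numbered pairs (horizontal) against the log2 excess of library 1 over libraries 2 and 3, averaged over both sorts (vertical); grey points are all genes tested, of which those beyond the axes are not drawn. All 37 interferon-stimulated genes but Ifi35 lie left of 0 and all but Oas3 above 0, coloured by function, with Ifi44 highest and Rsad2, Ifit3 and Ifit1bl1 farthest left.

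Per kilobase of exon, which allows levels to be compared between genes, the 37 genes ran from 2.33 to 171 CPM per kb in CD25-low cells (median 18.2) and from 0.599 to 68.5 in CD25-high cells (median 8.45). Ifi27l2a had the highest level in both sorts and Mx2 the lowest.

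**Figure D4:**
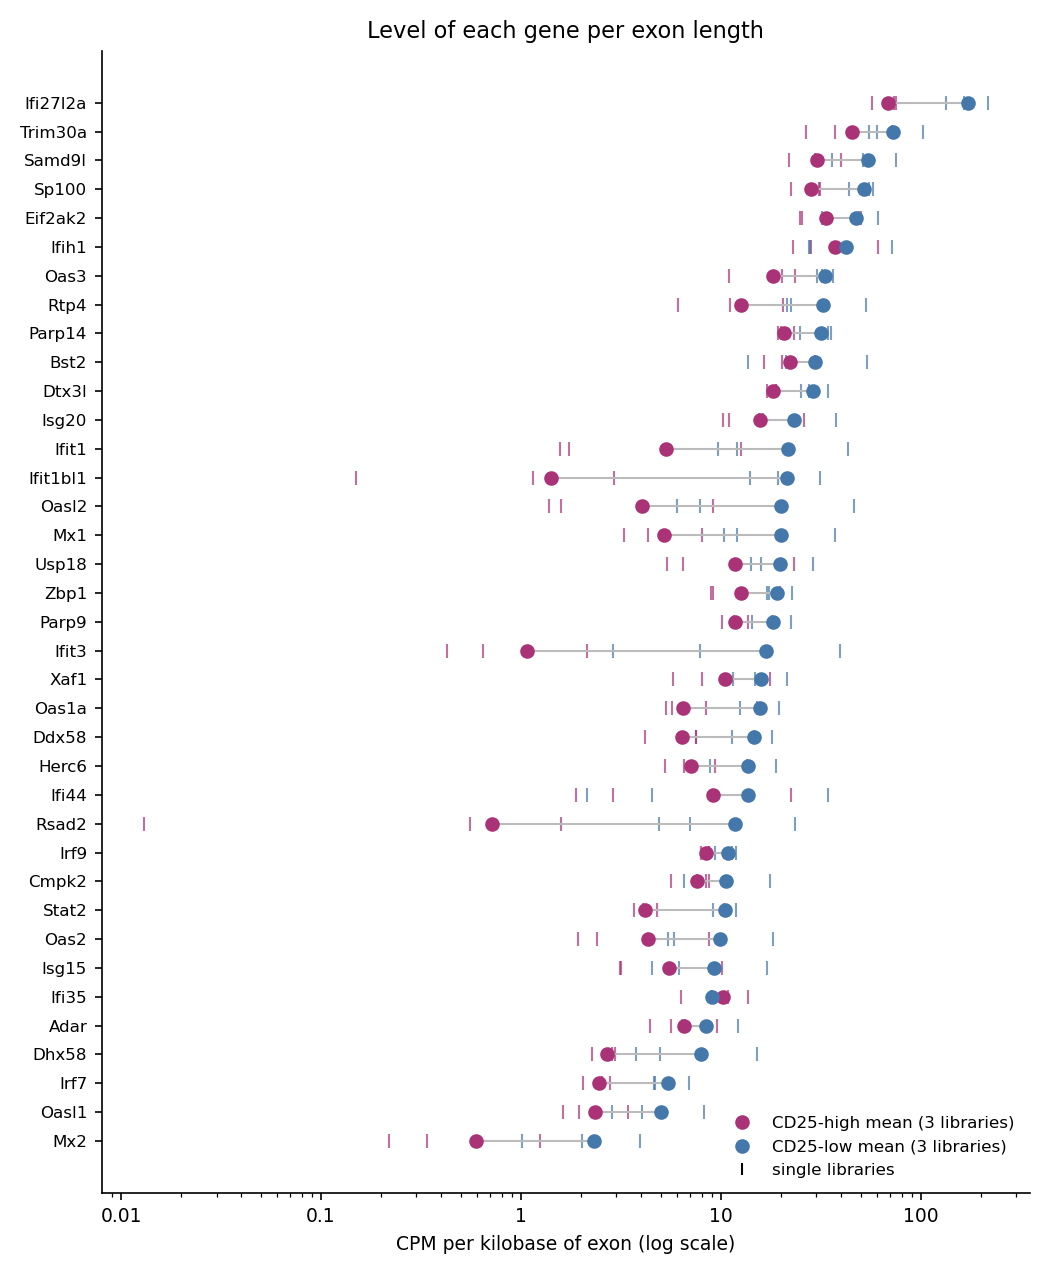
Mean level per kilobase of exon (CPM per kb, log axis) in CD25-high and CD25-low cells for each gene, as circles, with ticks for the single libraries; genes are ordered by their CD25-low mean. The CD25-low circle is the higher for all genes but Ifi35.

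The rest of the pathway was read from a list of 31 genes, of which 24 were tested. Of these, 1 was lower without the block and 3 with it, where 0.501% and 2.9% of all genes were. In either fit 0 were higher, where 0.154% and 1.73% of all genes were. The median log2 fold change was -0.36. Ifnar2, the high-affinity receptor chain, had 53.8, 34.3 and 33.8 CPM in the CD25-high and 105, 134 and 105 CPM in the CD25-low libraries. The groups did not overlap, and Ifnar2 was lower by a log2 fold change of -1.50 ± 0.25 (adjusted p = 0.0257 by edgeR, 0.000856 with the block). The call without the block held without CD25-high library 1 and was lost when any other library was left out, with adjusted p up to 0.196. Jak1, the kinase bound to it, had 260, 301 and 245 CPM against 338, 498 and 476 CPM, without overlap, and passed with the block (adjusted p = 0.0225 by edgeR, 0.217 without it). Ikbke, a kinase of the sensing pathway, also passed with the block (adjusted p = 0.0277 by edgeR, 0.209 without it). Ifnar1, the other receptor chain, had log2 fold change -0.67 ± 0.27, Irf1 -0.40 ± 0.34 and Tyk2 -0.12 ± 0.32, and these 3 passed in neither fit. Ifng, the gene of type II interferon and the only interferon gene tested, is given after its values were seen. It had 97.9, 24.2 and 43.1 CPM in the CD25-high and 16.6, 22.3 and 20.7 CPM in the CD25-low libraries, all CD25-high values being above all CD25-low values. Its log2 fold change of 1.47 ± 0.43 passed in neither fit (adjusted p = 0.217 by edgeR, 0.0731 with the block), nor did that of Ifngr1, a chain of its receptor, at 0.60 ± 0.47.

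A further 50 interferon-stimulated genes outside the 37 were listed, and 49 were tested, with a median log2 fold change of -0.69. Without the block 0 were called in either direction by edgeR, 27 had an unadjusted p below 0.05, where 11.1% of all genes had, and DESeq2 called 12 lower and 1 higher, where it called 1.87% and 0.833% of all genes. With the block 22 were lower and 2 higher, where 2.9% and 1.73% of all genes were. Ifi208, a DNA-binding PYHIN protein, had 24.8, 11.6 and 8.40 CPM in the CD25-high and 133, 58.6 and 47.0 CPM in the CD25-low libraries, and the groups did not overlap. For Ifi208 the log2 fold change was -2.41 ± 0.48 (adjusted p = 0.0602 by edgeR, 2.03e-05 with the block). Ifi203, of the same family, passed with the block at a log2 fold change of -0.88 ± 0.14 (adjusted p = 0.00282 by edgeR, 0.114 without it). Ifit3b, the copy that shares sequence with Ifit3, had 8, 0 and 0 counts against 325, 104 and 28 counts and passed with the block (adjusted p = 0.000514 by edgeR). The pair higher with the block, Ifitm3 and Ifitm1, were named after their values were seen and encode membrane proteins that restrict virus entry. Ifitm3 had 63.9, 53.0 and 68.5 CPM in the CD25-high and 33.7, 9.24 and 23.6 CPM in the CD25-low libraries, without overlap (adjusted p = 0.00344 by edgeR with the block, 0.163 without it).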

How the data were processed

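RNA was profiled in 6 libraries, 3 per sort, made, per the labels' protocols, by NuGEN Ovation RNA-Seq System v2. The authors deposited 1 table of raw counts per gene. Its rows all total at least 10. The submitters' processing notes name Novoalign, DESeq2, mm10 and hg19, with no role. The sources used here give no counting tool, annotation, strand or treatment of multiply mapped reads. Gene names came from GENCODE M21, which named 15169 of the 15445 IDs and left 276 unnamed.

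Counts were filtered with filterByExpr (minimum count 10, minimum total 15), scaled by TMM and tested in edgeR 4.0.16 (limma 3.58.1, R 4.3.3) with the quasi-likelihood F test, sort as the only term, and adjustment over 12987 genes. The standard error is the log2 fold change divided by the square root of F. CPM use TMM-adjusted library sizes, and pair ratios add 0.5 CPM. DESeq2 1.42.0, other scalings, other filters, left-out libraries and the library number as a block were alternatives. The test was also run on simulated counts with known changes. These counts were drawn from the fit with the block, so they cannot show that the pairing is real.

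Same-numbered libraries deviated together over 2000 genes (correlations 0.468, 0.312 and 0.239, against -0.378 to 0.187 for different numbers), so the numbers were taken to pair the libraries. That pairing comes from the data and the shared number, not from a stated design. No library repeated another (chi-square per degree of freedom 25.99 to 91.59 within a group). Each member had at least 637 counts over the 6 libraries.

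Values by library are given, per function class, for up to 4 genes called in either fit (smallest p first) and the 2 most abundant. Named from the pathway and further lists were genes called without the block, some fixed receptor and factor names, and the 3 smallest p-values. Of these, Ifnar1, Irf1, Tyk2, Ikbke and Ifi203 are given without values by library. Isg15, Ifi44, Ifi35, Ifitm3, Ifitm1, Ifng and Ifngr1 were singled out after their values were seen. The members and lists were chosen with earlier results of these data known. Some results on listed genes and motifs are not reported here.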

Additional observations from a re-analysis of the deposited data

How the results depend on the processing

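The count of the 37 genes called lower was 3, and became 22 with the replicate block (the pairing by library number), 9 with DESeq2, 1 with RLE size factors, 1 with no low-count filter, and 0 to 3 when 1 library was left out. RLE and no filter kept Stat2. Chosen after seeing the data, leaving out both libraries numbered 1 gave 16, and the block without pair 1, 2 or 3 gave 19, 19 and 19. The calls over all genes, in either direction, changed as well, among 12987 to 15445 genes tested. They were 85 in the main fit, 601 with the block, 376 with DESeq2, 83 with RLE and 79 with no filter. With 1 library left out they were 22 to 130, and without both libraries numbered 1 they were 380. The block without pair 1, 2 or 3 called 461, 486 and 536. These totals also stand beside the counts of the 2 lists that follow. For the 24 pathway genes the count lower was 1, 3 with the block, 0 to 1 with 1 library left out, 2 without both libraries numbered 1, and 3, 2 and 2 with the block and a pair left out. Pathway genes higher went from 0 to 1 with DESeq2, and to 1 with the block without pair 2 or pair 3. For the other interferon-stimulated genes the count lower was 0, 22 with the block, 12 with DESeq2, 1 with library size only, 0 to 3 with 1 library left out, 9 without both libraries numbered 1, and 15, 15 and 15 with the block and a pair left out. The count higher was 0, 2 with the block, 1 with DESeq2, 1 without both libraries numbered 1, and 2, 1 and 2 with the block and a pair left out. The median log2 fold change of -0.85 ran from -1.215 to -0.529 with 1 library left out, and was -0.924 without both libraries numbered 1 and -0.929 with the block without pair 1. With 1 library left out, the log2 fold change of Ifih1 ran from -0.726 to 0.425 and was above 0 when CD25-high library 2 (0.077) or library 1 of CD25-low (0.425) was left out. That of Cmpk2 ran from -0.738 to 0.106, above 0 without CD25-low library 1 (0.106), and was 0.024 without both libraries numbered 1. Without CD25-low library 1, 30 of 37 estimates were below 0, and Ifih1, Adar, Cmpk2, Bst2, Isg15, Ifi44 and Ifi35 were above it. The cause was not tested. With 3 libraries per sort, low counts such as the 1 count of Rsad2 in CD25-high library 3 limit how well a fold is known.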
